A study of Mus musculus with 11 samples.

Results

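The 40 nuclear genes described here encode the machinery that brings proteins into mitochondria and the proteins that fuse, divide and move these organelles. They were chosen by name from the deposited table of normalized counts, and 39 of the 40 had values, out of 19170 genes with values and 55414 listed. The remaining gene, Tomm6, which encodes a small subunit of the outer membrane translocase, was listed without a value, and 76.0% of its exon bases are shared with another annotated gene on the same strand. All samples were gingival epithelium of Langerin-DTR mice, in which the human diphtheria toxin receptor is expressed under the langerin promoter, so that diphtheria toxin (DT) removes langerin-positive cells such as Langerhans cells, the antigen-presenting cells of stratified epithelia. The 5 PBS mice received buffer and the 6 DT mice received toxin at the ages of 17, 24 and 31 days, and their epithelium was collected at 8 weeks, by which time the study describes the cells as having returned. Both groups carried the receptor, and mice given toxin without the receptor were not analysed here. The comparison asks whether removal of these cells around weaning left a difference in the adult epithelium.

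Nearly all mitochondrial proteins are encoded in the nucleus, made in the cytosol and imported. They enter through the TOM complex of the outer membrane and are then handed to the SAM complex for outer membrane barrels, to the small TIM chaperones and the TIM22 complex for inner membrane carriers, or to the TIM23 complex and its motor for proteins with a presequence, which a matrix protease cuts off. Mitofusins and Opa1 fuse mitochondria, Dnm1l and Fis1 act in fission, and the Rhot GTPases link mitochondria to motor proteins.

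Depth was between 17509328 and 24325513 reads per mouse, recovered from the steps of the normalized values, and the smallest mean of any of the 39 genes was 65.8 normalized counts. The epithelial markers summed to between 2606000 and 2897000 normalized counts in every mouse. The Langerhans cell list, all 7 of whose genes had values, summed to between 2159 and 4998 in PBS mice. In DT mice it summed to between 1598 and 3054. Cd74, H2-Ab1, Epcam and H2-Aa gave 2251, 911, 818 and 753 of the 4998 in PBS 3, whereas Cd207, which encodes langerin, gave 32.2. Cd207 was between 10.0 and 43.0 normalized counts in all 11 mice. Transcripts encoded by mitochondrial DNA took between 1.63% and 4.15% of the normalized total in PBS mice and between 1.34% and 2.24% in DT mice. Xist, the X-inactivation RNA, was between 8906 and 22725 normalized counts in PBS mice and between 7149 and 13137 in DT mice. PBS 1, PBS 2 and PBS 4 (19905, 19952 and 22725) were above every DT mouse, and PBS 3 and PBS 5 (8906 and 12161) were within the DT range. By contrast, the methods list male mice, and the study's reporting form speaks of both sexes. Of the Y-linked genes, Ddx3y and Eif2s3y were listed without a value, Uty was between 0.98 and 11.3 normalized counts in every mouse, and Kdm5d was at most 3.38. In bulk tissue, fewer cells of a type and less RNA per cell cannot be told apart.

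The promoters of 35 of the 40 genes were found in RefSeq (GRCm38.p6), as 41 windows from 250 bases before to 50 bases after a transcription start. An ETS motif, CCGGAAGT on either strand, was present in 10 of these windows (24.4%), against 3.89% of all 32851 windows. The NRF1 motif was present in 4 windows (9.76%), against 4.6% of all windows, and the E-box CACGTG, which reads the same on both strands, in 4 windows (9.76%), against 7.15%. The letters of these motifs do not contain one another, and a match describes letters and not binding. The windows of all genes were not matched to these windows for GC or CpG content, so the shares are a description only. The 9 genes with the ETS motif were Fis1, Mfn1, Mtx2, Pmpcb, Timm10, Timm10b, Timm23, Timm29 and Timmdc1. The windows of 3 genes with an unadjusted p under 0.05 and a motif are shown 5′ to 3′ on the strand of the gene, with the motif in capitals, which in Timm29 (chr9:21592472-21592771, plus strand) and Timm23 (chr14:32201842-32202141, minus strand) is the reverse complement of the ETS motif and in Timm9 (chr12:71136626-71136925, minus strand) the E-box.
Timm29: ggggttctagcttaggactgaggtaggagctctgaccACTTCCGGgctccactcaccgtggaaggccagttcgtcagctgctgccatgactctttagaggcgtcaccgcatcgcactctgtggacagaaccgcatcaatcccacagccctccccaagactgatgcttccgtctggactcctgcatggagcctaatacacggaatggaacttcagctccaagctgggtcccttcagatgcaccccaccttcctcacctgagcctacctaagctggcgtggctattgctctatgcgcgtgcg
Timm23: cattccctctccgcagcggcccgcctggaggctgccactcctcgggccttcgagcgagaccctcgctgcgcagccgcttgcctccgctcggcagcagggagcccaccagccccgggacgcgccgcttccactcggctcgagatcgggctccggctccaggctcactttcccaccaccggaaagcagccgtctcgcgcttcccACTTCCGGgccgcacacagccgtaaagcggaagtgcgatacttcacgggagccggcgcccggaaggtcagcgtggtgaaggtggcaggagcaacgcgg
Timm9: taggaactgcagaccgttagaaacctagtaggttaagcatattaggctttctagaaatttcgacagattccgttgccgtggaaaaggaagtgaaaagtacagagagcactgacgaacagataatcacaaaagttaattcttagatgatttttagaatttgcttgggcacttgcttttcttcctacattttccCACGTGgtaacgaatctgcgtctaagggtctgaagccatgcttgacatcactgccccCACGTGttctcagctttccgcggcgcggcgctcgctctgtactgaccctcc

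Across the 39 genes, levels in DT and PBS mice were close. None passed an adjusted p of 0.1 by limma, against 0.558% of all 19170 genes (107 genes, 0.313% higher and 0.245% lower after DT), and the smallest adjusted p was 0.196, for Rhot1. By unadjusted p under 0.05, 6 of 39 genes were found, all 6 higher after DT (15.4%), where 5.31% of all genes tested were higher at that p and 11.5% differed in either direction. The log2 fold change, DT minus PBS, was above 0 for 32 of 39 genes (82.1%), against 47.3% of all genes, and its median was 0.083, against -0.01 over all genes and 0.00 over the 13477 genes that averaged 10 normalized counts or more. These differences were small, since 27 of 39 fold changes lay within 1.1-fold in either direction. For 38 of 39 genes the 95% interval left out a change of 1.5-fold either way, the exception being Tomm5. The shares are descriptions of a list chosen with results known, and no test was run on them.

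**Figure D1:**
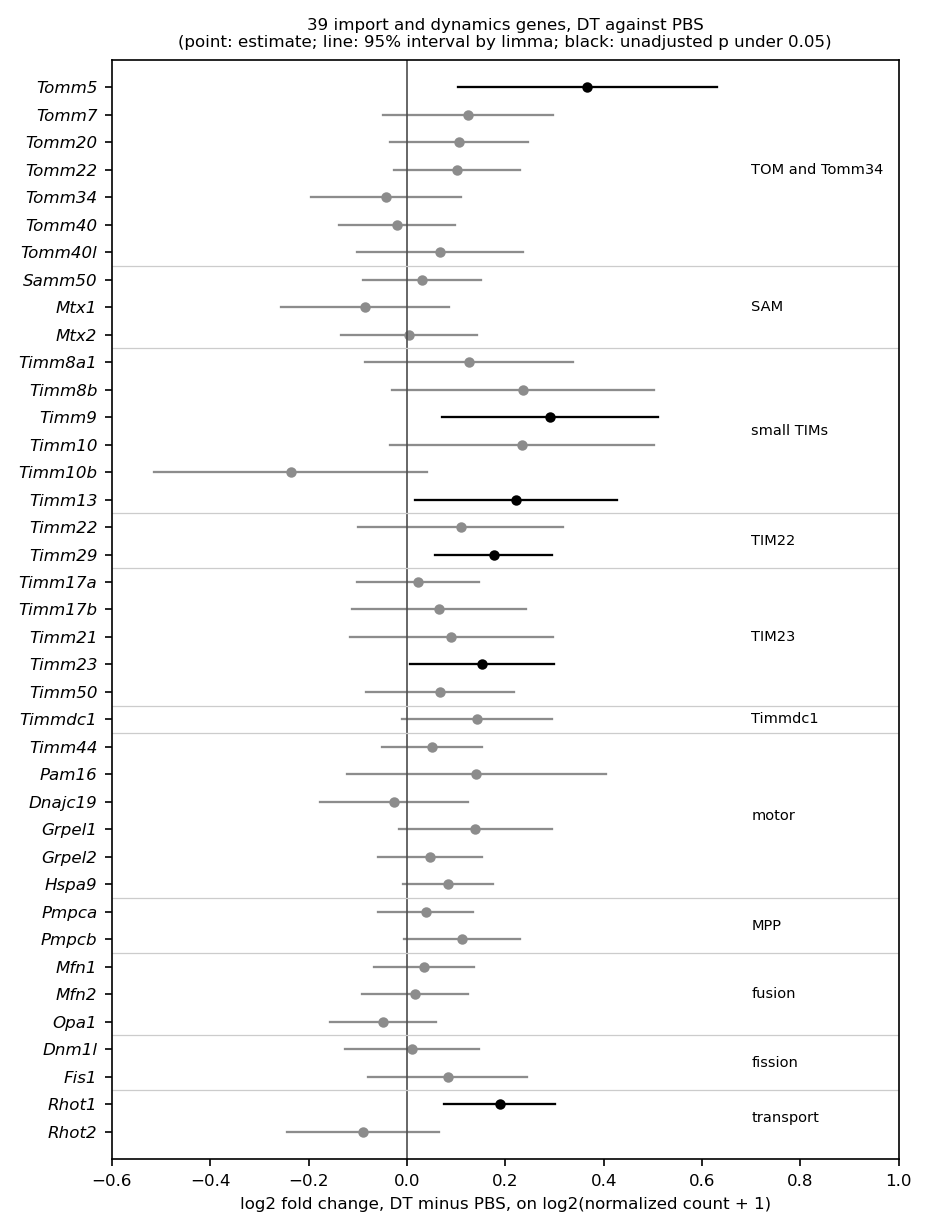
The log2 fold change (DT minus PBS, on log2 of the normalized count plus 1) of each of the 39 genes is on the horizontal axis, with genes on the vertical axis grouped by role, points for estimates and lines for 95% intervals by limma; black marks an unadjusted p under 0.05. Most points, 32 of 39, lie to the right of 0, and 6 intervals leave out 0.

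Of the 7 TOM genes with values, a group that here includes the cytosolic co-chaperone Tomm34, 5 had a positive log2 fold change, with a median of 0.10. Tomm5, a small TOM subunit, was measured at 389, 440, 314, 299 and 529 normalized counts in PBS mice 1 to 5, and from 451 through a median of 486 to 569 in DT mice. PBS 5 lay within the DT range and the other 4 PBS mice lay below it. The log2 fold change was 0.37 ± 0.12 (SE, n = 5 PBS and 6 DT, limma adjusted p = 0.263). Among the other 6 genes it ran from -0.04 for Tomm34 to 0.12 for Tomm7, another small subunit.

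The SAM genes did not share a direction. Mtx1, a metaxin of the outer membrane, had the smallest p of the 3, at 276, 306, 360, 288 and 343 normalized counts in PBS mice and from 266 through a median of 298 to 316 in DT mice. The groups overlapped, and the log2 fold change was -0.09 ± 0.08 (SE, limma adjusted p = 0.738), which was -0.03 without PBS 3, -0.05 without PBS 5, -0.06 without DT 2 and -0.13 without PBS 1. Samm50, the barrel-forming subunit, and Mtx2 were at 0.03 and 0.00. Of the exon bases of Mtx1, 30.1% lie opposite exons of other genes, Thbs3 among them.

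The small TIM chaperones, which shield carrier proteins in the intermembrane space, had the highest median log2 fold change of the roles with more than 2 genes, 0.23, with 5 of 6 genes positive. Timm9 was at 179, 156, 145, 163 and 133 normalized counts in PBS mice and from 168 through a median of 179.5 to 226 in DT mice. Only PBS 1 reached the DT range, and the log2 fold change was 0.29 ± 0.10 (SE, limma adjusted p = 0.289). Timm10, which forms a hexamer with Timm9, had a log2 fold change of 0.23 (limma adjusted p = 0.498).

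Timm13, the partner of the Timm8 proteins, was at 714, 749, 705, 554 and 880 normalized counts in PBS mice and from 752 through a median of 825 to 959 in DT mice. PBS 5 was within the DT range and PBS 4 the lowest of all mice. Its log2 fold change was 0.22 ± 0.10 (SE, limma adjusted p = 0.392), and 0.13 without PBS 4. Timm8a1 and Timm8b stood at 0.13 and 0.24. Timm10b was the one gene of this role with a negative value, -0.24 ± 0.13 (SE, limma adjusted p = 0.508), at a mean of 71.7 normalized counts in PBS and 60.9 in DT mice. Of the exon bases of Timm10b, 10.5% are shared with Gm45799 on the same strand and 11.6% lie opposite exons of other genes.

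**Figure D2:**
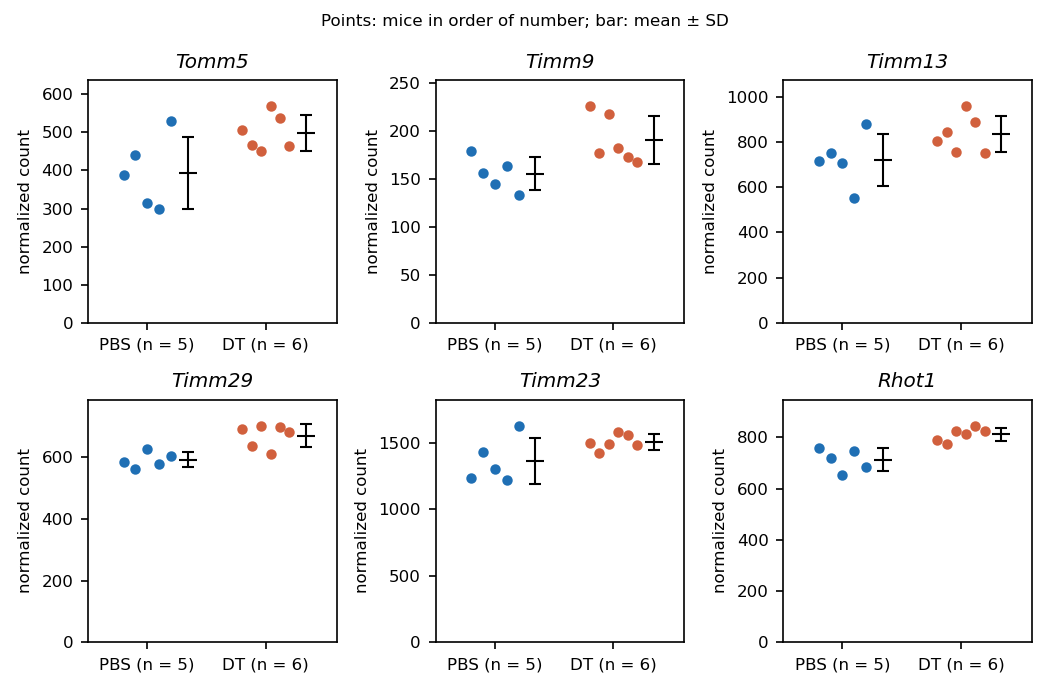
Normalized counts (vertical axes, from 0) in each PBS mouse (blue, n = 5) and DT mouse (orange, n = 6), in order of mouse number, with mean ± SD as bars, for the 6 genes with an unadjusted p under 0.05. The groups overlap in 5 panels, and in the Rhot1 panel every DT mouse, from 772 upwards, is above every PBS mouse.

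In the TIM22 complex, Timm29, a metazoan subunit of this translocase, was at 585, 562, 628, 579 and 604 normalized counts in PBS mice and from 609 through a median of 685 to 702 in DT mice. PBS 3 alone was inside the DT range, and the log2 fold change was 0.18 ± 0.06 (SE, limma adjusted p = 0.235). Timm22, the channel, was at 0.11 ± 0.10 (SE, limma adjusted p = 0.723).

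All 5 TIM23 genes had a positive log2 fold change, with a median of 0.067. Timm23, the channel subunit, was at 1232, 1428, 1305, 1218 and 1629 normalized counts in PBS mice and from 1420 through a median of 1495 to 1582 in DT mice. PBS 5 was above every DT mouse, PBS 2 lay within their range and the other 3 PBS mice lay below it, for a log2 fold change of 0.15 ± 0.07 (SE, limma adjusted p = 0.408). The others ran from 0.02 for Timm17a to 0.09 for Timm21. Timmdc1, related in sequence to the TIM17 family and known as an assembly factor of complex I, was at 342, 349, 349, 321 and 401 normalized counts in PBS mice and from 352 through a median of 386 to 430 in DT mice, with a log2 fold change of 0.14 ± 0.07 (SE, limma adjusted p = 0.467).

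Of the 6 genes of the import motor, which pulls proteins into the matrix, 5 had a positive log2 fold change. Hspa9, the mitochondrial Hsp70 at its core, was at 4224, 3947, 4346, 4092 and 3988 normalized counts in PBS mice and from 4227 through a median of 4372 to 4491 in DT mice. PBS 3 was within the DT range and the other 4 PBS mice were below it, with a log2 fold change of 0.08 ± 0.04 (SE, limma adjusted p = 0.484), or 0.05 after quantile normalization. Per kilobase of annotated exon, Hspa9 had the highest level of the 39 genes, 987 ± 43 normalized counts (SD, n = 11), ahead of Fis1 at 840 ± 81, and Timm10b had the lowest, 18.4 ± 2.7. These per-length levels assume reads along the whole transcript.

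The presequence protease is a dimer of Pmpca and Pmpcb. Pmpcb, its catalytic subunit, was at 700, 704, 731, 687 and 738 normalized counts in PBS mice and from 718 through a median of 771 to 830 in DT mice. The groups overlapped, with a log2 fold change of 0.11 ± 0.06 (SE, limma adjusted p = 0.454), and Pmpca stood at 0.04.

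The 5 genes of fusion and fission had log2 fold changes between -0.05 and 0.08. Opa1, the GTPase that fuses inner membranes, was at 1196, 1149, 1054, 1205 and 1059 normalized counts in PBS mice and from 1046 through a median of 1098 to 1120 in DT mice. Its log2 fold change was -0.05 ± 0.05 (SE, limma adjusted p = 0.767), and with single PBS mice left out it ran from -0.03 without PBS 1 or PBS 4 to -0.07 without PBS 3. The mitofusins Mfn1 and Mfn2 were at 0.03 and 0.02. Fis1, an outer membrane adaptor, was at 1320, 1309, 1531, 1181 and 1660 normalized counts in PBS mice and from 1372 through a median of 1462 to 1617 in DT mice, so that PBS mice spanned the DT range on both sides. Its log2 fold change was 0.08 ± 0.08 (SE, limma adjusted p = 0.728), which was 0.02 without PBS 4 and 0.15 without PBS 5. Dnm1l, the fission GTPase, was at 0.01.

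Rhot1, one of the GTPases that tether mitochondria to motors, was the one gene of the 39 (2.56%) whose groups did not overlap. Of all genes, 1.65% had groups apart and 0.902% had the DT mice above, so 1 such gene among 39 is near the share over all genes. Rhot1 was at 759, 721, 654, 746 and 683 normalized counts in PBS mice and from 772 through a median of 817.5 to 846 in DT mice. Its log2 fold change was 0.19 ± 0.05 (SE, limma adjusted p = 0.196). Rhot2, its paralog, was at 482, 450, 394, 413 and 381 normalized counts in PBS mice and from 368 through a median of 396 to 430 in DT mice, a log2 fold change of -0.09 ± 0.07 (SE, limma adjusted p = 0.686). Of the exon bases of Rhot2, 31.2% are shared with Wdr90 or Gm20683 on the same strand, so its count is uncertain.

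The log2 ratio of Rhot1 to Rhot2 within a mouse was 0.65, 0.68, 0.73, 0.85 and 0.84 in PBS mice and ran from 0.94 through a median of 1.01 to 1.20 in DT mice, so every DT mouse was above every PBS mouse. Its mean was 0.75 ± 0.09 in PBS and 1.03 ± 0.10 in DT mice (SD, n = 5 and 6). This ratio and those of 6 other pairs of related or partner genes were computed after the values of the single genes had been seen. No test was therefore run on these ratios. Rhot1 by itself already had its groups apart, so the gap in its ratio to Rhot2 is not separate evidence. The uncertain count of Rhot2 also enters that ratio. No other pair holds a gene with groups apart, and the share of all gene pairs with groups apart was not computed. In the other 6 pairs the groups overlapped and the difference in mean log2 ratio, DT minus PBS, lay between -0.11 and 0.09.

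**Figure D3:**
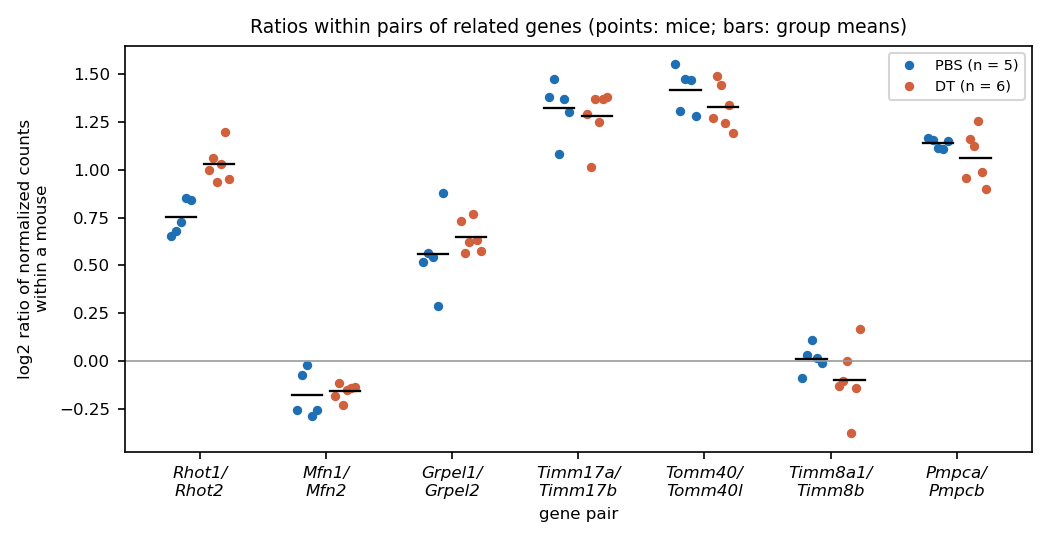
The log2 ratio of normalized counts within each mouse (vertical axis) for 7 gene pairs, with PBS mice in blue (n = 5), DT mice in orange (n = 6) and group means as black bars. The Rhot1/Rhot2 ratios reach 0.85 in PBS mice and start at 0.94 in DT mice, and the groups overlap in the other 6 pairs. Rhot1 by itself has its groups apart, and the count of Rhot2 is uncertain.

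The PBS mice differed from each other more than the DT mice did. The median coefficient of variation of the 39 genes was 10.4% in PBS and 5.69% in DT mice, and 28 of 39 genes had the larger SD in PBS mice (of genes averaging 10 normalized counts or more, 69.3% did). PBS 5 was the highest PBS mouse for 19 of 39 genes (48.7%, against 22.9% of all genes), and PBS 4 the lowest for 18 (46.2%, against 23.7%). For each mouse, the median over the 39 genes of the log2 level minus the mean of the gene lay between -0.11 and 0.07 in PBS mice and between 0.01 and 0.06 in DT mice, and PBS 5 was above every DT mouse before any correction for gene length.

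**Figure D4:**
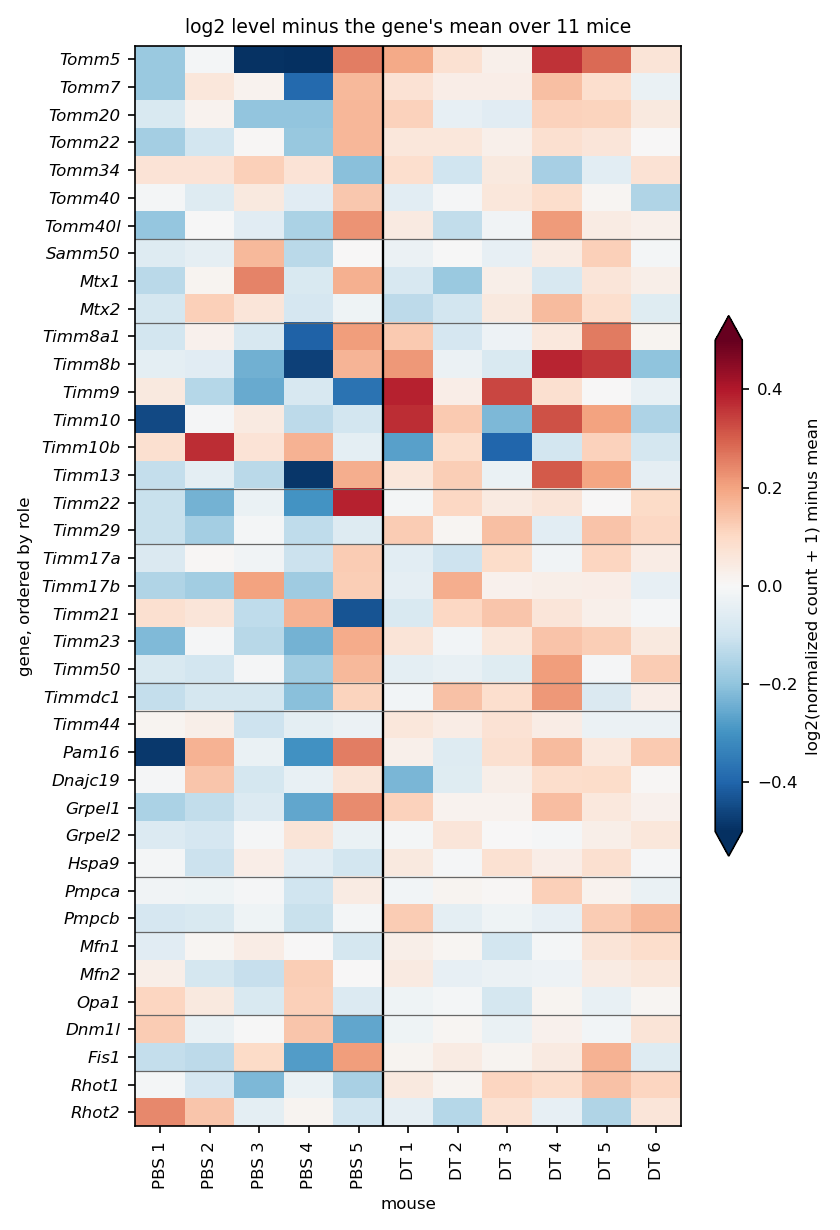
Each cell is the log2 level of 1 gene (rows, in order of role) in 1 mouse (columns, 5 PBS then 6 DT) minus the mean of that gene over the 11 mice, red above and blue below, with the scale ending at 0.5 either way. The PBS 4 column is mostly blue and the PBS 5 column mostly red in the upper rows, whereas the DT columns are paler.

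Gene length moved with these values. Among the 19 genes shorter than the median exon length of 3664 bases, PBS 5 was the highest PBS mouse for 13 and PBS 4 the lowest for 13, and among the 20 others for 6 and 5. The median deviation of the shorter genes was -0.24 in PBS 4 and 0.17 in PBS 5, and between 0.02 and 0.14 in DT mice. Over 13454 genes of all kinds, Spearman's rho between deviation and exon length was 0.379 in PBS 4, 0.291 in PBS 1, -0.221 in PBS 5 and -0.257 in DT 4, a description over genes that share a library. Over the 39 genes, rho between log2 fold change and exon length was -0.525, with a median log2 fold change of 0.13 for the shorter and 0.04 for the longer genes. With the trend on length and GC content removed from each mouse, the median over the 39 genes was 0.088 and 33 were positive. The median deviation of PBS 5 was then 0.0386, within the DT range. It was above those of DT 1, DT 2 and DT 6, just below that of DT 3 (0.0392) and below those of DT 4 and DT 5.

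**Figure D5:**
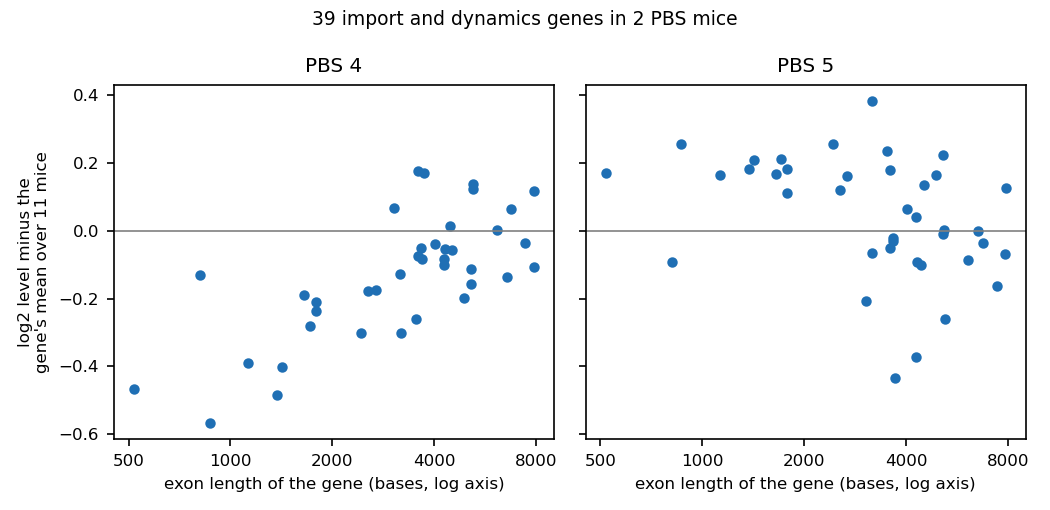
The log2 level minus the mean of the gene over 11 mice (vertical axis) against exon length in bases (horizontal log axis) for the 39 genes, in PBS 4 (left) and PBS 5 (right). In PBS 4 the shorter genes lie lowest, with a median of -0.24, and in PBS 5 most of them lie above 0, with a median of 0.17.

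Whether any of the 39 genes was called changed with the mice in the fit and with the length correction. Without PBS 5, 3 genes passed by limma, namely Tomm5 (log2 fold change 0.48, adjusted p = 0.054), Timm23 (0.22, adjusted p = 0.095) and Grpel1, the nucleotide exchange factor of the motor (0.22, adjusted p = 0.095), where 1.35% of all genes did. With the length and GC trend removed, Rhot1 passed (0.22, limma adjusted p = 0.066), where 0.845% of all genes did, and Mtx1 and Opa1 were at -0.05 and -0.02. Without PBS 4 none of the 39 genes passed by limma and the median log2 fold change fell from 0.083 to 0.05. Without PBS 3 and PBS 5, 9 of 39 passed, against 10.3% of all genes. The log2 fold changes of Timm9, Fis1 and Opa1 were then 0.19, 0.21 and -0.11. PBS 3 and PBS 5 were left out because their values set them apart on the first principal component. The choice and the fit thus share the same values, so the added calls are not separate evidence of a difference. The Langerhans cell, macrophage and T cell marker lists were highest in the same pair of mice. Summed normalized counts in PBS 3 and PBS 5 were 4998 and 4040 for the Langerhans cell list (at most 3054 in the other mice). They were 336 and 305 for the macrophage list (at most 284) and 63.4 and 46.2 for the T cell list (at most 38.6). For the neutrophil list the sums were 81.5 and 91.3, beside 82.7 in DT 4. The B cell list was highest in PBS 4, at 62.8, with 17.1 in PBS 3 and 35.7 in PBS 5. Medians were under 5 for Cd4, Cd2, Cd3d and Cd8a of the T cell list and for Cd79a, Ms4a1 and Cd79b of the B cell list. The part of these lists in the result was not tested.

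Of 60 other genes of import and dynamics with values, a list drawn up by function, none passed an adjusted p of 0.1 by limma and 11 had an unadjusted p under 0.05, of which 9 were higher after DT (15%, against 5.31% of all genes) and 2 lower (3.33%, against 6.19%). The log2 fold change was positive for 47 of the 60, with a median of 0.061. Groups were apart for 2 of the 60 genes (3.33%), against 1.65% of all genes. The DT mice were above for 1 gene (1.67%) and below for 1 (1.67%), against 0.902% and 0.751% of all genes. With 1 gene each way, this is near the share over all genes. Chchd4, the oxidoreductase that traps small TIM proteins in the intermembrane space, was at 243, 254, 218, 255 and 235 normalized counts in PBS mice and from 270 through a median of 277 to 315 in DT mice, with the groups apart and a log2 fold change of 0.25 ± 0.07 (SE, limma adjusted p = 0.201). Spg7, a subunit of an inner membrane protease, was apart in the other direction, at 714, 756, 708, 792 and 707 in PBS mice and from 599.5 through a median of 658 to 686 in DT mice, with a log2 fold change of -0.19 ± 0.06 (SE, limma adjusted p = 0.215). The next by p were Dnaja3, a mitochondrial Hsp40, at 0.20 (limma adjusted p = 0.228) and Mtfr1, a fission regulator, at 0.16 (limma adjusted p = 0.232), and in the other direction Mtfr2 at -0.51 (limma adjusted p = 0.321) and Mtfr1l at -0.10 (limma adjusted p = 0.664), or -0.05 without PBS 2.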

How the data were processed

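RNA was taken from gingival epithelium of 5 PBS and 6 DT mice and made into stranded polyA libraries, per the labels. After trimming and quality filtering, the authors mapped reads with TopHat, obtained gene counts with htseq-count, dropped genes with few counts, and divided each count by the DESeq2 size factor of the mouse. The deposited values are these normalized counts. The methods name GRCm38 and follow a guide for 3′ tag libraries, whereas the submitters' processing notes name GRCm39, TopHat2 2.1.1, HTSeq 2.01 and DESeq2 1.36.0, so the build was not settled. Exon lengths came from GENCODE M21 (GRCm38) for 19117 of 19170 genes. Fold changes and p-values were obtained with limma 3.58.1 in R 4.3.3 (trend, all 11 mice, no covariate) with log2(normalized count + 1) as input, p-values adjusted by Benjamini-Hochberg across 19170 genes, and calls at 0.1. The script was tested on simulated data. The genes and lists were chosen with earlier results of these data known. Values per mouse are given for genes with an adjusted p under 0.1, an unadjusted p under 0.05 or groups apart, otherwise for the smallest p in each role; of other pathway genes, the 3 with the smallest p in each direction are named, with values per mouse where the groups were apart. Rhot2, Timm10, Timm10b, Grpel1 and the gene pairs were added after values were seen. The labels do not say that each sample is 1 mouse or litter, so p-values measure the spread between these samples. Neither the mouse numbers nor the library numbers in the titles, by which PBS 5 and DT 6 share a number, paired the groups, and no per-sample column was left out.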

Additional observations from a re-analysis of the deposited data

Results flagged for a closer look

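Among 78 groups (39 genes in PBS and in DT mice), 3 held a mouse far from the others of its group, where chance flags about 1 in 20 groups. Tomm34 was 385.1 normalized counts in PBS 5 and between 466.2 and 483.8 in the other PBS mice. Timm17b, an X-linked TIM23 subunit, stood at 337.9 in DT 2, where the remaining DT mice ranged from 288.9 to 305.1. Pmpca stood at 1726 in DT 4, where the remaining DT mice ranged from 1552 to 1608.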

How the results depend on the processing

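Each result was recomputed under 21 alternatives: a pseudocount of 5, a mean of at least 10 normalized counts, TMM scaling, quantile normalization, array weights, a length and GC correction, a replicate block on the mouse number without and with that correction, each mouse left out, PBS 3 and PBS 5 left out, and, added after seeing the data, a replicate block on the library number in the titles. The gene pairs, added later, had only the pseudocount and the left-out mice. Planned edgeR and DESeq2 fits on recovered reads were left out. Genes called, 107 of all genes, were 189 with array weights, 162 with the length and GC correction, 1967 without PBS 3 and PBS 5, 35 with the replicate block, 36 with block and correction and 0 with the block on library numbers (1404 at an unadjusted limma p under 0.05); with 1 mouse left out they ran from 27 (without DT 5) to 259 (without PBS 5). Members called, 0, were 1 with the length and GC correction, 9 without PBS 3 and PBS 5, and from 0 to 3 with 1 mouse left out. Members with an unadjusted p under 0.05, 6, were 10 with array weights, 17 without PBS 3 and PBS 5, and from 4 to 14 with 1 mouse left out. The median log2 fold change of the members, 0.083, was 0.13 without PBS 3 and PBS 5 and from 0.05 (without PBS 4) to 0.12 (without PBS 5) with 1 mouse left out, and 30 to 33 members were positive in all alternatives. Other pathway genes called, 0, were 8 of 60 without PBS 3 and PBS 5, where 10.3% of all genes were called. Mtx1, -0.09, reversed there to a log2 fold change of 0.026 (limma adjusted p = 0.886). The cause was not tested. The mouse numbers were checked as pairs: r of deviations was 0.088, 0.172, -0.233, -0.209 and 0.324, so they were not taken as pairs. By library number PBS 5 goes with DT 6 instead (r = -0.048). Both blocks called 0 members, and a mouse with no partner, DT 6 or DT 5, adds nothing to them.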
